A study of Mus musculus with 5 samples.

Results

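The genes described here anchor the basal cells of a stratified epithelium to the sheet of matrix beneath them. They are the integrin chains Itga6, Itgb4, Itga3, Itgb1 and Itga2, the laminin chains Lama3 and Lamb3, the cytolinker Dst and the tetraspanin Cd151. They were chosen by name: every probe set of the array whose only annotated symbol is one of these 9 genes was taken, which gave 26 of the 45037 probe sets and 9 of the 18193 genes tested. The samples were esophagus RNA of CC10-rtta/teton-IL-13 transgenic mice on the FVB/N background, aged 3 to 4 months, on Affymetrix Mouse Genome 430 2.0 arrays. Mice of the Dox group (n = 3 arrays) were fed doxycycline, and mice of the NoDox group (n = 2 arrays) were fed a regular diet. Both groups carry the transgenes, in which the CC10 promoter, active in club cells of the airway, drives a doxycycline-dependent transactivator that turns on IL-13. Doxycycline-fed mice without the transgenes were not analysed here, so diet and IL-13 cannot be told apart. How long the diet was given is not stated in the sources used here. Whether the arrays come from different animals is not stated either, and p-values then measure only the spread among these arrays, which may be technical.

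A hemidesmosome is a rivet-like junction on the underside of a basal keratinocyte. In it the integrin α6β4 (Itga6 with Itgb4) binds laminin-332 in the basement membrane outside the cell, while plectin and the epithelial form of dystonin (Dst, also called BP230) tie the integrin to keratin filaments inside. Lama3 and Lamb3 encode chains of laminin-332. The integrin α3β1 (Itga3 with Itgb1) binds the same laminin through actin-linked adhesions, α2β1 (Itga2 with Itgb1) binds collagen, and Cd151 is a membrane partner of α3β1 and α6β4. Itgb1 pairs with many other α chains and is made by nearly every cell of the esophagus, and Dst has further isoforms in muscle and nerve.

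Promoter windows are printed for Itgb1 and Dst, because these genes hold 6 of the 8 probe sets that were lower in Dox at unadjusted p under 0.05. Each window runs from 250 bases before to 50 bases after a start site, 5′ to 3′, from RefSeq on GRCm38.p6. Capitals mark a GC box (GGGCGG), the TATA box (TATAAA), an AP-1 site (TGANTCA), a STAT site with 3 free bases (TTCNNNGAA) or a STAT6 site, which has the same ends with 4 free bases between them, each searched on both strands. No matches overlapped in the windows printed.
Itgb1, chr8:128685404-128685703, plus strand: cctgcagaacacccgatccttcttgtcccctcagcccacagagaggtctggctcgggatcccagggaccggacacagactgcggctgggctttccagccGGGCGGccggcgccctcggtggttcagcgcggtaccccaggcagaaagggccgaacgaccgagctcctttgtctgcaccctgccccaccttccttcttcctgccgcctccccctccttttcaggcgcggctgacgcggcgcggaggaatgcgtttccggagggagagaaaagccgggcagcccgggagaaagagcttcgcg
Dst, upstream start, chr1:34011345-34011644, plus strand: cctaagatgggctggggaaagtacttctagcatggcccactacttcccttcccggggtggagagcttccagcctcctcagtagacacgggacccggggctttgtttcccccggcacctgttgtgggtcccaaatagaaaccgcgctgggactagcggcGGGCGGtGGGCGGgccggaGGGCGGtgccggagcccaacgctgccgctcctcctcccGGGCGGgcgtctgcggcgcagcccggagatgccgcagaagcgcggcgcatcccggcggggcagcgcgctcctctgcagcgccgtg
Dst, downstream start, chr1:34160010-34160309, plus strand: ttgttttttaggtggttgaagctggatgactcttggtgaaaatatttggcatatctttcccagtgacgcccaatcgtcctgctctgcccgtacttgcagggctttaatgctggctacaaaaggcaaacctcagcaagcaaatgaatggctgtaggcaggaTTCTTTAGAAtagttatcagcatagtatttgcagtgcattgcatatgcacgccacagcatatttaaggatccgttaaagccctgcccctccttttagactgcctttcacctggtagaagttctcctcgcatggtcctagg

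The Itgb1 window and the upstream Dst window were rich in G and C (67.3% and 70.3%, against a median of 52.7% over 32851 windows) and held 1 and 4 GC boxes. The downstream Dst window had 46.0% G and C, no GC box and 1 match to the STAT6 motif. A GC box stood in 35.7% of all windows and the STAT6 motif in 6.95%. The other motifs stood in 13.6% (TATA box), 7.81% (AP-1) and 8.30% (STAT with 3 free bases) of all windows, and none of them in these 3. Of the other adhesion genes, windows of Itga3, Itga2, Lamb3 and Cd151 were searched. Windows of adhesion genes on 1 chromosome were left out, so a gene not named here can still have a window. The start site nearer the 5′ end of Itga3 held 3 GC boxes and also matched the STAT6 motif. Its other window held 1 GC box and 1 AP-1 match. The Itga2 window held 1 GC box and the upstream Cd151 window 2 GC boxes, with no other motif. Neither the downstream Cd151 window nor either Lamb3 window held any of the 5 motifs. A match describes the letters only.

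None of the adhesion genes passed the test between diets. Of their 26 probe sets, limma with Benjamini-Hochberg adjustment over all 45037 made no call in either direction (0 higher, 0 lower; threshold 0.05 on the adjusted p), where it called 0.606% of all probe sets higher (273) and 0.537% lower (242). At unadjusted p under 0.05, 1 of the 26 was higher (3.85%) and 8 were lower (30.8%), against 5.40% and 8.74% of all probe sets. The log2 fold change was below 0 in 18 of the 26 (69.2%), against 56.4% of all probe sets. The split of calls over all probe sets depends on the scaling: it was 314 to 118 with quantile normalization, 311 to 152 with median centring and 374 to 138 with the array constants removed. The deposited values are ratios to the NoDox mean, so the NoDox values of a probe set average 1, with 2 exceptions over all probe sets. The median log2 fold change of the 26 was -0.11, beside -0.08 over all probe sets.

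Values differed from gene to gene. All 3 Dox arrays lay below both NoDox arrays in 9 of the 26 probe sets (34.6%), where 19.7% of all probe sets did so, and above them in 3 (11.5%, against 12.4%). The 9 were 4 of Itgb1, 3 of Dst, 1 of Lamb3 and 1 of Itga3, and probe sets of a gene share their target and are not independent. With 1 probe set standing for each gene, the count was 2 of 9 genes below, or 22.2%, where 22.3% of all genes were, and 2 of 9 above, where 13.6% of all genes were. The probe set that stands for Dst or Itga6 was picked among lower bounds of the signal. With 1421117_at for Dst the count below was 3 of 9 (33.3%), and with 1422444_at for Itga6 the count above was 3 of 9 (33.3%), both chosen after the values were seen, so a share by gene cannot be settled.

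**Figure D1:**
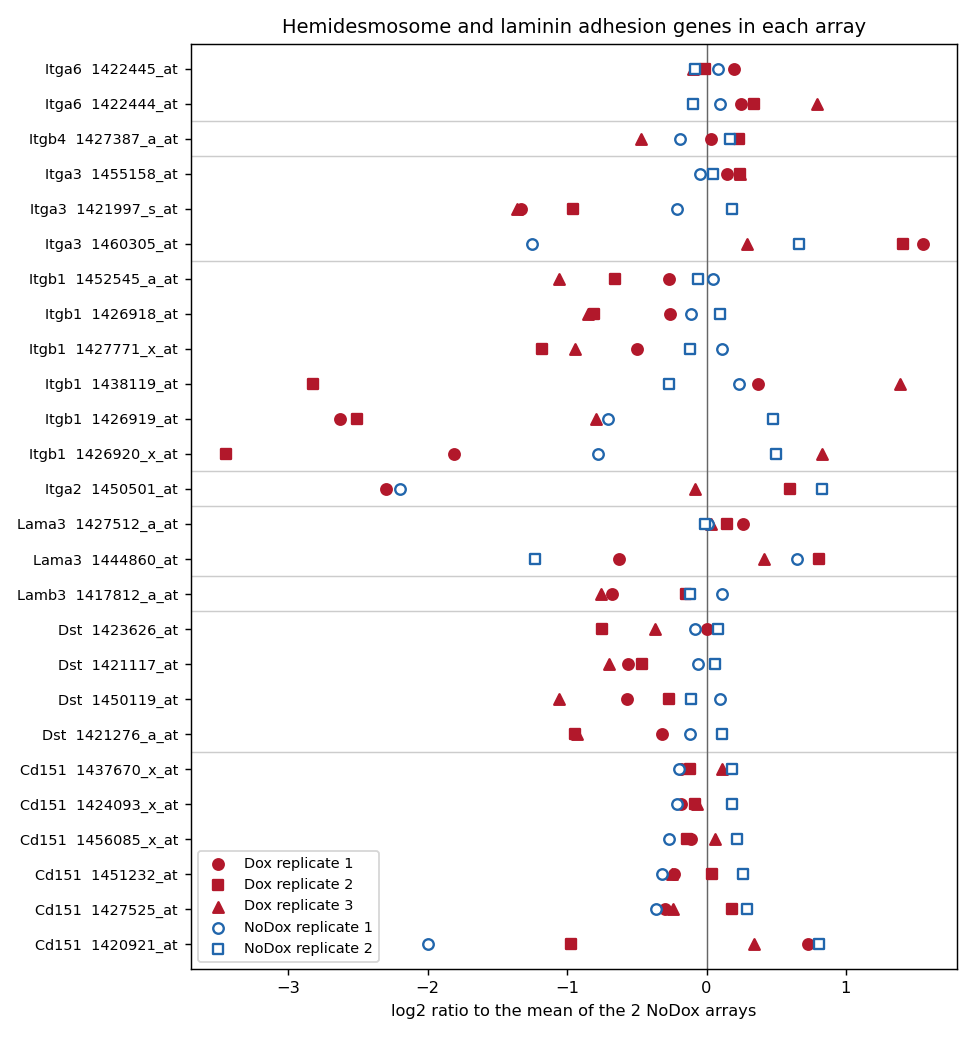
Log2 of the deposited ratio (NoDox mean set to 1) for each of the 26 probe sets, with filled red symbols for the 3 Dox arrays and open blue symbols for the 2 NoDox arrays. The upper 3 Itgb1 probe sets and 3 of the 4 Dst probe sets have every Dox array left of both NoDox arrays, while the Cd151 and Itgb4 symbols are mixed.

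The integrin of the hemidesmosome showed no called difference between the diets. Itgb4, the β4 chain of this junction, had ratios of 1.02, 1.17 and 0.721 in Dox replicates 1, 2 and 3. In the NoDox arrays they were 0.875 and 1.12. The groups overlapped, and the Dox arrays spanned both the highest and the lowest value. Its log2 fold change was -0.06 ± 0.22 (SE; 95% confidence interval -0.55 to 0.44; adjusted p = 0.939, limma), a sign that turned to 0.04, 0.02 and 0.05 with the 3 other scalings.

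Itga6, the α6 chain, had 2 probe sets with different values. Probe set 1422445_at had ratios of 1.15, 0.995 and 0.931 in Dox and 1.06 and 0.944 in NoDox, which overlap. Its log2 fold change was 0.03 ± 0.15 (95% interval -0.30 to 0.36; adjusted p = 0.949, limma). Probe set 1422444_at had 1.19, 1.26 and 1.73 in Dox and 1.07 and 0.931 in NoDox. All Dox arrays were above both NoDox arrays there, with Dox replicate 3 the highest, at 0.46 ± 0.18 on the log2 scale (unadjusted p = 0.0312; adjusted p = 0.296, limma). The annotation gives both the same gene and does not say which part of the transcript each reads.

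Dst, whose epithelial form links the junction to keratin, had the lowest adjusted p of the 26 probe sets. Which isoforms each Dst probe set reads could not be looked up, so its values are not those of the epithelial form alone. In 1421117_at the ratios were 0.681, 0.725 and 0.614 in Dox and 0.958 and 1.04 in NoDox. The Dox arrays were close together and all below both NoDox arrays. The log2 fold change was -0.57 ± 0.14 (95% interval -0.89 to -0.26; unadjusted p = 0.00241; adjusted p = 0.102, limma, and 0.0452 to 0.547 over the alternatives). With the dimmer probe sets left out of the fit, which leaves fewer to adjust over, this probe set was called lower (adjusted p = 0.0452).

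The other Dst probe sets also had lower values in Dox. Probe set 1450119_at had 0.674, 0.828 and 0.481 in Dox and 1.07 and 0.928 in NoDox, a log2 fold change of -0.63 ± 0.22 (adjusted p = 0.234, limma). Probe set 1421276_a_at had 0.803, 0.521 and 0.523 in Dox and 0.919 and 1.08 in NoDox, at -0.73 ± 0.24 (adjusted p = 0.210, limma). In both, every Dox array was below both NoDox arrays. Probe set 1423626_at overlapped: 0.997, 0.594 and 0.776 in Dox and 0.944 and 1.06 in NoDox, at -0.37 ± 0.21 (adjusted p = 0.468, limma). All 4 kept a value below 0 under every alternative in which they were tested.

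The partners of these genes in the same junction showed no called change. Of 6 genes matched, 0 were called higher and 0 lower (limma; 1 higher and 0 lower at unadjusted p under 0.05, where 6.69% and 10.3% of all genes were). Their median log2 fold change was -0.09, beside -0.08 for all genes. Collagen XVII (Col17a1), the transmembrane collagen of the hemidesmosome, was at -0.10 ± 0.15 and plectin (Plec) at -0.23 ± 0.14. Collagen VII (Col7a1), the anchoring fibril beneath it, was at -0.13 ± 0.19 and Erbin, a binding partner of Itgb4, at -0.08 ± 0.18. Krt5 and Krt14 make the keratin filaments that Dst and plectin hold. Krt5 was at 0.02 ± 0.16. Krt14 had ratios of 1.57, 1.42 and 1.19 in Dox and 0.877 and 1.12 in NoDox, above both NoDox arrays in each Dox array, at 0.48 ± 0.17 (adjusted p = 0.250, limma). The signs of Col17a1, Col7a1, Krt5 and Erbin turned under at least 1 alternative.

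The laminin chains Lama3 and Lamb3 had different values. Lama3, the α3 chain that carries the integrin-binding end, had ratios of 1.20, 1.11 and 1.02 in Dox and 1.01 and 0.990 in NoDox in the probe set 1427512_a_at. The Dox arrays were just above the NoDox arrays, at 0.14 ± 0.15 (95% interval -0.19 to 0.48; adjusted p = 0.731, limma). The second Lama3 probe set, 1444860_at, was dim, brighter than 14.9% of probe sets. Its ratios ran from 0.645 to 1.75 in Dox and were 1.57 and 0.427 in NoDox (log2 fold change 0.48 ± 0.94), so it held little information.

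Lamb3, the β3 chain, had 0.623, 0.904 and 0.590 in Dox and 1.08 and 0.921 in NoDox. Every Dox array was below both NoDox arrays, with Dox replicate 2 close to the lower of them. The log2 fold change was -0.53 ± 0.20 (95% interval -0.98 to -0.07; unadjusted p = 0.0277; adjusted p = 0.281, limma, and 0.0527 to 0.747 over the alternatives).

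Itgb1, the β chain of α3β1 and α2β1, had lower values in Dox in its 3 brighter probe sets, and none passed the threshold. Probe set 1427771_x_at had ratios of 0.708, 0.441 and 0.521 in Dox and 1.08 and 0.921 in NoDox. Its log2 fold change was -0.87 ± 0.21 (95% interval -1.35 to -0.39; unadjusted p = 0.00270; adjusted p = 0.106, limma, and 0.0423 to 0.577 over the alternatives). The lowest of these (adjusted p = 0.0423, limma) came from the replicate block. Dox replicate 3 has no NoDox array of its number and does not enter the fold change there. Probe set 1426918_at had 0.834, 0.570 and 0.553 in Dox and 0.925 and 1.07 in NoDox, at -0.64 ± 0.20 (adjusted p = 0.185, limma). Every Dox array was below both NoDox arrays in these, and Dox replicate 1 was the nearest to them.

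The third, 1452545_a_at, had 0.831, 0.632 and 0.480 in Dox and 1.04 and 0.961 in NoDox, at -0.66 ± 0.21 (adjusted p = 0.203, limma). Without Dox replicate 1 the 3 probe sets, in the order given, were at -1.06, -0.83 and -0.86 (adjusted p = 0.0549, 0.0614 and 0.0761, limma). Without Dox replicate 2 they were at -0.72, -0.55 and -0.66 (adjusted p = 0.127, 0.241 and 0.234, limma). Without Dox replicate 3 they were at -0.83, -0.53 and -0.46 (adjusted p = 0.262, 0.397 and 0.39, limma). With the array constants removed they were at -0.76, -0.53 and -0.55, so the values stayed below 0 under the other scalings too. In bulk tissue, fewer cells that make Itgb1 and less Itgb1 RNA per cell cannot be told apart, and the same holds for every gene here.

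The other 3 Itgb1 probe sets were dim and scattered. Probe set 1438119_at had 1.29, 0.142 and 2.63 in Dox and 1.17 and 0.829 in NoDox, with the lowest and the highest of all 5 arrays both in Dox. Probe sets 1426919_at and 1426920_x_at were brighter than 7.57% and 7.14% of probe sets. Their log2 fold changes of -1.85 ± 1.02 and -1.34 ± 1.30 shrank to -0.55 and -0.23 with an offset of 640 steps added to the signal. The size of their values therefore depended on the dim end of the scale.

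Itga3, the α chain that pairs with Itgb1 on laminin, had 3 probe sets that went different ways. The brightest, 1455158_at, had 1.11, 1.18 and 1.18 in Dox and 0.967 and 1.03 in NoDox. All Dox arrays were slightly above both NoDox arrays, at 0.21 ± 0.15 (95% interval -0.12 to 0.54; adjusted p = 0.583, limma). Probe set 1421997_s_at had 0.399, 0.513 and 0.389 in Dox and 0.865 and 1.13 in NoDox, all below both NoDox arrays, at -1.20 ± 0.42 (unadjusted p = 0.0191; adjusted p = 0.244, limma). Probe set 1460305_at had 2.94, 2.66 and 1.22 in Dox and 0.421 and 1.58 in NoDox, which overlap, at 1.38 ± 0.66 (adjusted p = 0.397, limma). The last 2 were brighter than 40.8% and 38.9% of probe sets, and the suffix _s_at marks probes that can read more than 1 transcript. A single direction for Itga3 could therefore not be given.

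Itga2, the collagen-binding α2 chain, was measured by 1 dim probe set, brighter than 23.0% of probe sets. Its ratios were 0.203, 1.52 and 0.948 in Dox and 0.217 and 1.78 in NoDox. The 2 NoDox arrays were as far apart as the Dox arrays, and the log2 fold change of 0.09 ± 1.13 (95% interval -2.46 to 2.65) leaves large changes in either direction undetectable.

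Cd151, the tetraspanin that holds laminin-binding integrins in place, overlapped between the diets in all 6 of its probe sets, 5 of which were above the median level. Probe set 1437670_x_at had 0.884, 0.918 and 1.08 in Dox and 0.870 and 1.13 in NoDox. The NoDox arrays enclosed every Dox array, and the log2 fold change was -0.05 ± 0.16 (95% interval -0.42 to 0.32; adjusted p = 0.929, limma). Across the 5 brighter probe sets the log2 fold changes ran from -0.12 to -0.04 with adjusted p from 0.837 to 0.947 (limma). In each of them NoDox replicate 1 was lowest and NoDox replicate 2 highest of the 5 arrays. The sixth, 1420921_at, was dim and ran from 0.512 to 1.65 in Dox and from 0.250 to 1.75 in NoDox.

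**Figure D2:**
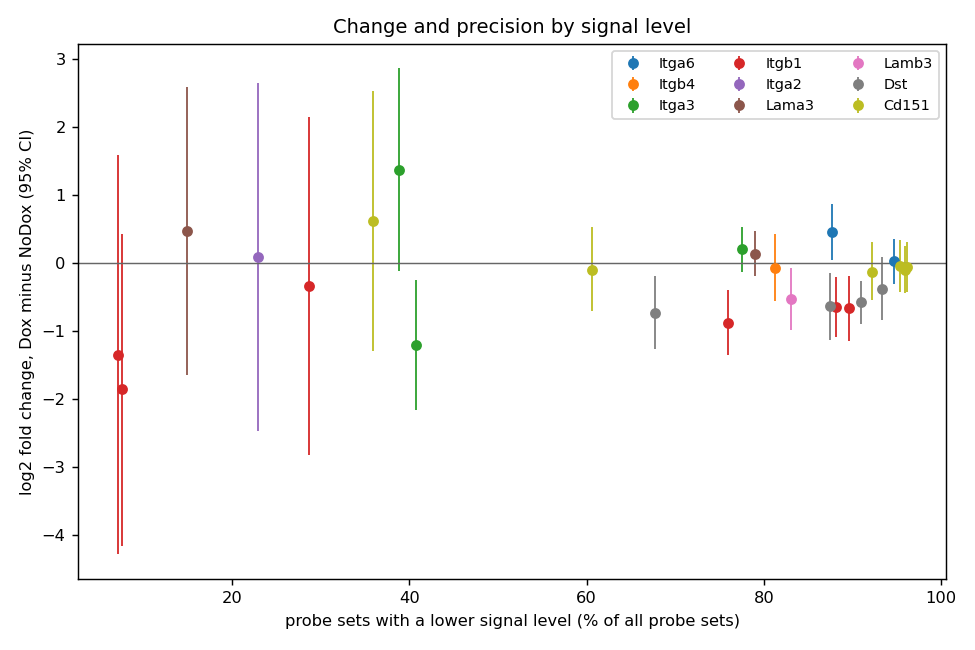
Log2 fold change (Dox minus NoDox) with its 95% confidence interval for each probe set, against the percentage of all probe sets with a lower signal level (a lower bound of the level where it was not recovered, so the order at the right is not exact). Intervals of the 8 probe sets under the median level are wide, and those of the brighter Itgb1, Dst and Lamb3 probe sets mostly lie below 0 before adjustment for the number of tests.

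How far a value can be read depended on the signal. The 18 probe sets at or above the median level had standard errors from 0.14 to 0.27 on the log2 scale and the 8 dimmer ones from 0.42 to 1.30. Among the 18, 7 were lower at unadjusted p under 0.05 (38.9%, against 14.9% of all probe sets at that level), 14 were below 0 (77.8%, against 62.7% of all probe sets at that level) and 7 had all Dox arrays below both NoDox arrays (38.9%, against 28.1%). The background here is every probe set at or above the median level and is not matched in brightness: the 18 lay between 60.6% and 96.1% in level, several on lower bounds, and the share lower at unadjusted p was larger among brighter probe sets (14.9%, against 8.74% of all). The 7 were those of 3 genes, Itgb1, Dst and Lamb3.

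Genes that act as partners were set against each other within each array. This removes a scaling by 1 constant per array, but not a scaling that differs with the signal level. The log2 ratio of Itga6 minus that of Itgb4 was 0.17, -0.23 and 0.37 in Dox and 0.27 and -0.25 in NoDox, which overlap (mean difference 0.09). Itga3 minus Itgb1 was 0.41, 0.90 and 1.30 in Dox and -0.10 and 0.10 in NoDox, higher in every Dox array, with a mean difference of 0.87. Lama3 minus Lamb3 was 0.94, 0.29 and 0.79 in Dox and -0.09 and 0.10 in NoDox, again higher in every Dox array, with a mean difference of 0.67. Itgb1 minus Itgb4 was -0.30, -0.89 and -0.59 in Dox and 0.25 and -0.23 in NoDox, lower in every Dox array by a mean of -0.60. Cd151 minus Itga3 differed by -0.26 and overlapped. Over these 5 pairs the two-sided exact permutation p ran from 0.2 to 0.7 (adjusted p from 0.333 to 0.7), and 3 against 2 arrays cannot give an exact p below 0.1. Each pair uses 1 probe set a gene (that of highest level or bound), so the Itga3 values hold for 1455158_at only.

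**Figure D3:**
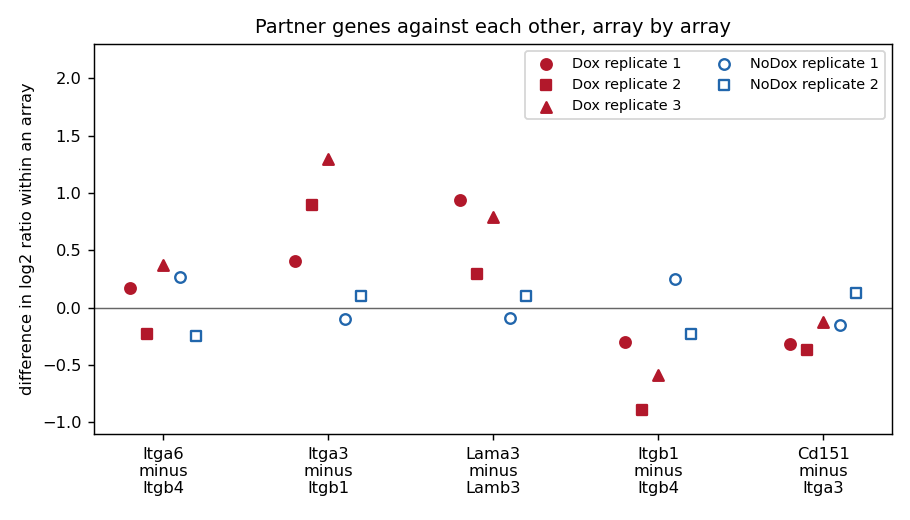
Difference in log2 ratio between the genes of a pair within each array (red, Dox; blue, NoDox). Itga3 minus Itgb1 and Lama3 minus Lamb3 are above the NoDox arrays in all 3 Dox arrays, while Itga6 minus Itgb4 is mixed.

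None of the other laminin chains was called. Of 8 chains 0 were called higher and 0 lower (limma). At unadjusted p under 0.05, 0 were higher and 2 lower (25.0%), against 6.69% and 10.3% of all genes. The log2 fold change was below 0 in 6 (75.0%), against 58.0% of all genes, and the median was -0.34, beside -0.08 for all genes. Lamc1, the γ1 chain shared by most laminins of muscle and vessels, had 0.848, 0.714 and 0.590 in Dox and 1.10 and 0.904 in NoDox, at -0.49 ± 0.18 (adjusted p = 0.266, limma). Lamb2 was at -0.33 ± 0.14 (adjusted p = 0.343, limma), with all Dox arrays below both NoDox arrays. Lama1, a chain of early basement membranes, went the other way in a dim probe set: 2.27, 2.51 and 4.75 in Dox and 1.06 and 0.940 in NoDox, at 1.59 ± 0.96 (adjusted p = 0.511, limma). It is named here after its values were seen. Of 16 other basement membrane genes 0 were called higher and 0 lower (limma). At unadjusted p under 0.05, 1 was higher (6.25%) and 1 lower (6.25%), against 6.69% and 10.3% of all genes, and the median was -0.16, beside -0.08 for all genes. The collagen IV chain Col4a4 was at 0.90 ± 0.35 and Col4a5 at -0.35 ± 0.15, the genes of lowest p in that list.

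Among the other integrins, 2 chains of leukocytes rose. Of 18 chains matched (19 listed), 2 were called higher and 0 lower, where 1.01% of all genes were called higher and 0.737% lower, and the list median was 0.40. Itgb2, the β2 chain of leukocytes, had ratios of 4.06, 3.61 and 4.16 in Dox and 1.02 and 0.981 in NoDox. It rose by 1.98 ± 0.14 on the log2 scale (adjusted p = 0.000330, limma), a call lost with no intensity trend (adjusted p = 0.140) and with the trend set on the mean log2 ratio (0.537), over a range from 4.37e-05 to 0.537. Itgax, the αX chain of dendritic cells and macrophages, had 3.78, 2.67 and 6.69 in Dox and 1.01 and 0.994 in NoDox and rose by 2.03 ± 0.35 (adjusted p = 0.0329, limma). Its call was lost without Dox replicate 1 (adjusted p = 0.0673), Dox replicate 3 (0.0532), NoDox replicate 1 (0.351) and NoDox replicate 2 (0.338). It was also lost with no trend (0.349) and with the trend on the mean log2 ratio (0.537), over a range from 0.00520 to 0.537.

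Inside the cell, 17 of 20 genes of the integrin adhesion plaque and of tetraspanins were matched, with 0 called higher and 0 lower (limma). At unadjusted p under 0.05, 3 were higher (17.6%) and 2 lower (11.8%), against 6.69% and 10.3% of all genes, and the median was -0.15, beside -0.08 for all genes. Fermt3, the kindlin of blood cells, was at 0.73 ± 0.15 (adjusted p = 0.0587, limma, and 0.0287 to 0.537 over the alternatives). Lims1, an adaptor that binds integrin-linked kinase, had 0.681, 0.421 and 0.520 in Dox and 1.13 and 0.868 in NoDox, at -0.90 ± 0.21 (adjusted p = 0.0957, limma, and 0.0158 to 0.573 over the alternatives).

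**Figure D4:**
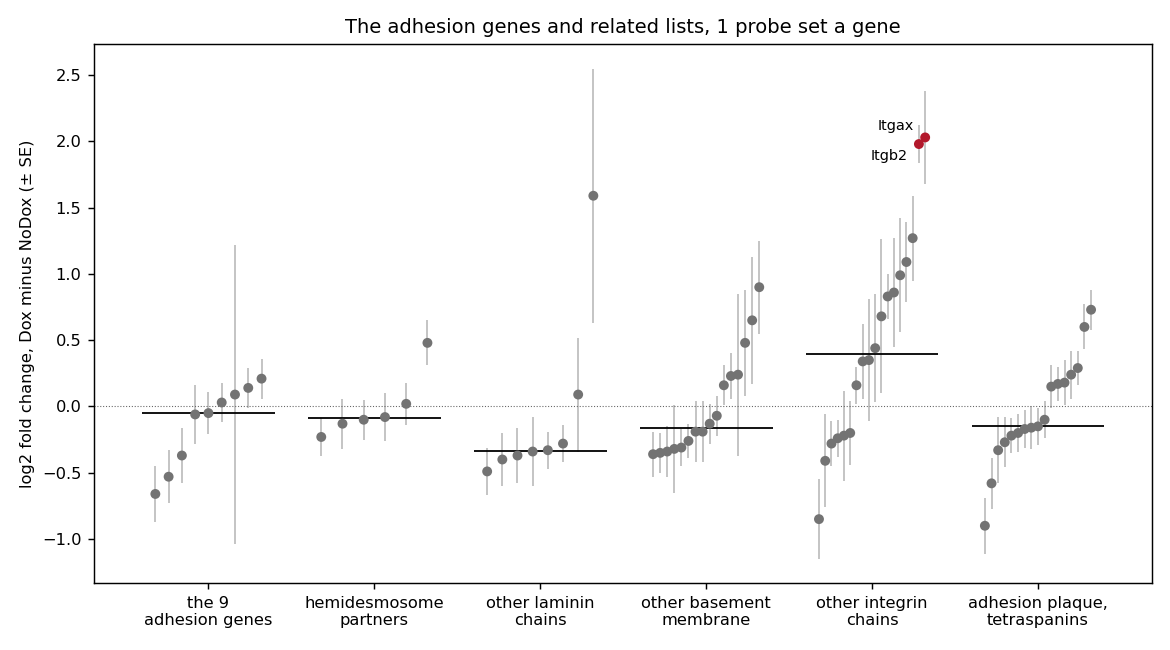
Log2 fold change (Dox minus NoDox) ± SE for the 9 adhesion genes and the genes of 5 related lists, 1 probe set a gene, with the median of each list as a black line and called genes in red. Itgb2 and Itgax, at 1.98 and 2.03, are the only red points.

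The 3 genes whose 5 log2 ratios lay nearest to those of Itgb4 were Nkx6-1, Tlr8 and Dolpp1, with root mean square differences of 0.0175, 0.0215 and 0.0484 over the 5 arrays, a description of likeness in few arrays.

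Markers of the cells in the sample moved with the diet in part. The levels of the squamous keratins Krt4, Krt13, Krt5 and Krt14 were not recovered and are known as lower bounds only, so the tissue label was not checked by their rank. No marker was at the lowest deposited value of 0.01. Over all genes 1.01% were called higher and 0.737% lower, and at unadjusted p under 0.05 the shares were 6.69% and 10.3%. Of 6 basal keratinocyte markers 0 were called (limma; 1 higher and 2 lower at unadjusted p under 0.05), and their summed ratio was 5.30 to 6.63 in Dox and 5.86 to 6.14 in NoDox. Of 6 suprabasal markers 1 fell, the desmosomal cadherin Dsg1a (adjusted p = 0.0444, limma), and the sum was 4.55 to 4.90 against 5.95 to 6.05. Of 9 skeletal muscle markers 4 fell, with sums of 3.75 to 4.60 in Dox and 8.45 to 9.55 in NoDox. The 4 were Myl2, Myh7, Tnnc1 and Myh4, with Dox over NoDox ratios of 0.0161, 0.0606, 0.128 and 0.120. Acta1, Ckm, Myh1 and Tnnt3 were at 0.946, 0.901, 0.915 and 0.845 and were not called. Myh2 was not called either, at 0.204 (unadjusted p = 0.0117, adjusted p = 0.201, limma). All 9 had a log2 fold change below 0, where 58.0% of all genes did. All Dox arrays lay below both NoDox arrays in 6 of them (66.7%, against 22.3% of all genes). The skeletal muscle markers therefore differed in the size of their change. The 5 smooth muscle markers summed to 3.46 to 3.83 and 4.40 to 5.60 with 0 called (limma). At unadjusted p under 0.05, 0 of these 5 were higher and 3 lower (60.0%). Of 7 leukocyte markers 4 rose, Cd68, Tyrobp, Laptm5 and Csf1r (sums of 13.2 to 21.0 against 6.93 to 7.07). Of 6 alveolar markers of lung 5 rose, Sftpc, Sftpa1, Sftpd, Napsa and Ager (sums of 21.5 to 56.9 against 5.68 to 6.32). These marker calls depend on the intensity trend of the fit. With no trend 0 of all probe sets were called lower and 6 higher, so every marker call lower was lost. With the trend on the mean log2 ratio 0 were called in either direction, so all marker calls were lost. The 8 endothelial markers summed to 9.0 to 11.3 and 8.0 to 8.0 (3 higher and 0 lower at unadjusted p under 0.05). The 6 fibroblast markers summed to 5.05 to 6.13 and 6.0 to 6.0 (0 higher and 1 lower). The 5 markers of Schwann cells and nerve summed to 5.19 to 6.17 and 4.84 to 5.16 (0 higher and 0 lower). In each of these lists 0 were called (limma). Itgb1, Dst and laminin chains are made in muscle as well as in epithelium, Lama3 in lung alveoli and Itgb2 and Itgax in leukocytes, and the part of these shifts in the values above was not tested.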

How the data were processed

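Per the labels' protocols, the authors made signals with MAS 5.0 at default settings from Affymetrix Mouse Genome 430 2.0 arrays and normalized them in GeneSpring 7.3.1 pair-wise to unstimulated controls. Checked on the values, each deposited value is a linear ratio whose divisor is the NoDox mean: the NoDox values sum to 2 within 0.0001 in 45099 of 45101 probe sets. No detection call is given, and the genome build is not given in the sources used here. The number of arrays limits the precision.

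Signals are whole multiples of a step times a constant per array. The constants (0.932, 0.894, 0.936, 0.988 and 1.000 for the 3 Dox and 2 NoDox arrays) were read from quotients that recur between arrays. Step numbers up to 50000 matching all 5 ratios within a relative tolerance of 3e-07 were found for 40028 of 45098 probe sets (88.8%), and for 10 of 4000 shuffled ones (0.25%). A level can be too low by a common divisor of the 5 numbers, and the rest took the highest level within the search limit as a lower bound.

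Log2 ratios, with no pseudocount and no filter on low values, were fitted with limma 3.58.1 in R 4.3.3 (eBayes with a trend on this level, two-sided, 3 residual degrees of freedom) over 45037 probe sets, 64 controls left out. The fit was tested on simulated data. The probe set of highest level or bound stood for a gene. Of the probe sets 34945 have 1 symbol, 932 several and 9160 none.

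Named are all probe sets of the 9 genes and all hemidesmosome partners. In each other pathway list the called genes and the 2 of lowest p are named. Of the cell markers, the called genes and all skeletal muscle markers are named, after their values were seen. The genes and lists were chosen with earlier results of these data known. Lists were described by counts. Alternatives covered scaling, offset, filter, trend, probe set, array weights, single arrays, replicate block and threshold. Tables used Python 3.11.15, numpy 2.4.6, numba 0.67.0 and pandas 2.3.3, and plots matplotlib 3.10.9.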

Additional observations from a re-analysis of the deposited data

How the results depend on the processing

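With 5 arrays, 15 of the 26 probe sets kept their sign in each of the alternatives that gave a value, among them the 3 brighter Itgb1, all Dst, the Lamb3 and all Itga3 probe sets. The count of the 26 called lower was 1 with low levels left out (Dst 1421117_at) and 1 with the replicate block (Itgb1 1427771_x_at, adjusted p = 0.0423), and 0 in every fit with 1 array left out. In the replicate block Dox replicate 3 has no NoDox array of its number, so it does not enter a fold change. Itgb1 1427771_x_at was at -0.83 both in that fit and without Dox replicate 3. The lowest adjusted p over the alternatives for Itgb2 and Itgax also came from that fit. Over all probe sets, calls higher and lower were 6 and 0 with no trend, 0 and 0 with the trend on the mean log2 ratio (limma), 437 and 490 with array weights, 440 and 504 with the replicate block and 492 and 538 at a threshold of 0.1. Calls lower were 118 with quantile normalization, 152 with median centring, 138 with the array constants removed (chosen after seeing the data) and 498 with low levels left out. With 1 array left out, calls ran from 35 to 378 higher and 4 to 541 lower, where a lone NoDox array is assumed to vary like the others. List genes called higher were 4 with median centring, low levels left out, 1 probe set per gene, array weights, the replicate block, the constants removed and the threshold of 0.1, 0 with no trend and with the trend on the mean log2 ratio, and 1 to 5 with 1 array left out. List genes called lower were 1 with low levels left out, the replicate block and the threshold of 0.1. The cause was not tested. The shift of the median of all probe sets was 0.11 with the constants removed. Whether replicate numbers shared by the groups pair the arrays could not be settled. Deviations from the group means correlated at 0.0125 and 0.0172 over all probe sets, dim ones included. With 2 NoDox arrays their deviations mirror each other, so the 2 values are not independent and do not exclude pairing.

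Signs turned as follows, none of them of a called gene. With quantile normalization Itgb4 was at 0.04, Cd151 1437670_x_at at 0.09, 1424093_x_at at 0.03, 1456085_x_at at 0.10 and 1451232_at at 0.01, Col17a1 at 0.04 and Erbin at 0.07. With median centring Itgb4 was at 0.02, Cd151 1437670_x_at at 0.03, 1456085_x_at at 0.04 and Erbin at 0.00. With the constants removed Itgb4 was at 0.05, Cd151 1437670_x_at at 0.06, 1424093_x_at at 0.01, 1456085_x_at at 0.07 and 1427525_at at 0.02, Col17a1 at 0.01 and Erbin at 0.03. With the replicate block Itgb4 was at 0.14, Itga2 at -0.16 and Col7a1 at 0.04. With the offset of 640 steps Itgb1 1438119_at was at 0.04 and Itga2 at -0.01, and with array weights Itga2 was at -0.08. With 1 array left out, fold changes that turned ran from -0.05 to 0.11 for Itga6 1422445_at, -0.24 to 0.14 for Itgb4, -1.20 to 0.90 for Itgb1 1438119_at, -1.43 to 1.61 for Itga2, -0.46 to 1.42 for Lama3 1444860_at, -0.11 to 0.15 for Krt5, -0.22 to 0.04 for Col7a1 and -0.22 to 0.08 for Erbin. For Cd151 they ran from -0.24 to 0.14 (1437670_x_at), -0.29 to 0.10 (1424093_x_at), -0.29 to 0.21 (1456085_x_at), -0.40 to 0.17 (1451232_at), -0.41 to 0.24 (1427525_at) and -0.77 to 2.03 (1420921_at).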
